A study of Mus musculus with 4 samples.

Results

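The IgA plasma cells of the bone marrow were 143 of 39743 cells kept from 4 single-cell libraries. They were chosen by raw transcript counts, given as unique molecular identifiers (UMIs). Kept cells had 300 or more genes, and mitochondrial transcripts made up no more than 20% of their UMIs. A cell entered with at least 50 UMIs of Jchain, at least 3 of Xbp1, at most 1 of Rhox5, and Igha as the highest of the 8 heavy-chain constant genes. All mice carried the 5TMM myeloma model: 5TGM1-luc myeloma cells had been injected intravenously into C57BL/KawRij mice aged 6 weeks, and treatment began 3 weeks later. The vehicle group had 2 mice and the PM group had 2 mice given purinostat mesylate (PM), an inhibitor of class I and IIb histone deacetylases, at 10 mg/kg. Total marrow was taken after 24 h and freed of red cells, with 1 library per mouse and no sorting for plasma cells. The transplanted myeloma line is a single expanded clone, so each marrow held both that clone and plasma cells of the host.

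Plasma cells are the antibody-secreting end stage of the B lineage. Those of the IgA class are formed largely in responses at mucosal surfaces, join IgA into dimers through the J chain encoded by Jchain, and can settle in the bone marrow as long-lived cells. XBP1 and BLIMP-1 (Prdm1) drive the secretory programme, and receptors such as BCMA (Tnfrsf17) and CD28 receive survival signals in the marrow.

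The 4 libraries held 86052982 UMIs (vehicle 1), 69828595 (vehicle 2), 109447030 (PM 1) and 74388936 (PM 2), and 9261, 7826, 13387 and 9269 kept cells in the same order. The IgA plasma cells numbered 22 and 42 in the vehicle libraries and 50 and 29 in the PM libraries. These small numbers limit the precision of every level below. The same gates with another leading constant gene gave 73 plasma cells: Ighg2b led in 34, Ighg2c in 23, Ighg1 in 14 and Ighm in 2. A further 162 cells carried at least 5 UMIs of Rhox5, a gene expressed by the myeloma clone, with Ighg2b leading, and they are called the clonal cells here.

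**Figure D1:**
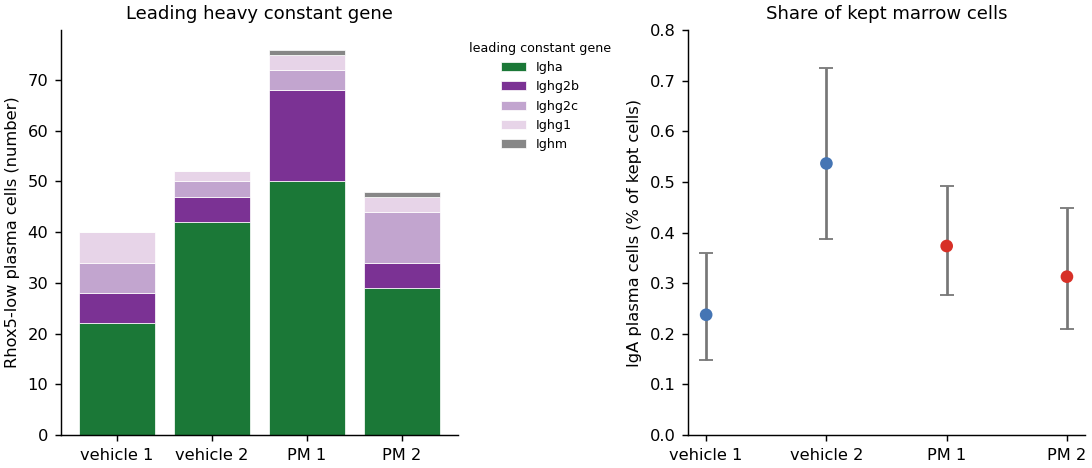
Left, number of Rhox5-low plasma cells in each library by leading heavy-chain constant gene; right, IgA plasma cells as a percentage of kept cells, with exact 95% binomial intervals. Igha led in 22, 42, 50 and 29 cells, the largest class in each library, and the shares of the PM libraries lay between those of the vehicle libraries.

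The gates left almost no cells near their edges. In all 4 libraries together, 0 cells that met the other conditions had 40 to 49 Jchain UMIs, 2 had 20 to 49 and 1 had 50 to 99. Likewise 0 cells had exactly 2 Xbp1 UMIs, 4 had 2 or fewer and 2 had exactly 3, and no cell that met the other conditions had any Rhox5 UMI. Igha exceeded the next constant gene at least 6.40-fold in every IgA cell. These values chose the cells and are given as a description.

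The variable (V) genes of the antibody chains set these cells apart from the clone, and the gates did not use them. The germline ends are shown for the 3 kappa V genes that led in most IgA cells, of which Igkv10-96 also marks the clone, for Ighv1-26, which shared the first place among heavy-chain genes, and for Ighv1-54 of the clone, since each V gene is a separate germline segment and cells of a clone share theirs. Each sequence is the 3′ end of the spliced GENCODE M21 transcript (GRCm38), 5′ to 3′. Capitals mark the last cysteine codon that follows a tyrosine-tyrosine or tyrosine-phenylalanine pair, the conserved cysteine that ends the third framework region, just before the third complementarity-determining region.
Igkv6-15: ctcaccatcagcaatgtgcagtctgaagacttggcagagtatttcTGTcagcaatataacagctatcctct
Igkv4-59: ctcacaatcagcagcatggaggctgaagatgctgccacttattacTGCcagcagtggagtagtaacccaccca
Igkv10-96: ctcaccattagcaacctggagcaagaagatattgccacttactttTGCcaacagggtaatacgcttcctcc
Ighv1-26: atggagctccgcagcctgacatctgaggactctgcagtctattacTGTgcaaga
Ighv1-54: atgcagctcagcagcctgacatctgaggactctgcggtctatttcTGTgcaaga

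Among IgA cells with at least 5 light-chain V UMIs (128 of 143), 45 different V genes led. Igkv6-15, on chromosome 6 from 70406469 to 70406992, led in 10 of them (7.81%, exact 95% interval 3.81 to 13.9%). Iglv1 led in 9 cells, and Igkv10-96 and Igkv4-59 led in 7 each. Of the 45 genes, 14 led in a single cell and 1, Igkv10-96, led in cells of all 4 libraries. For the heavy chain, 96 IgA cells had at least 5 V UMIs, 47 genes led, and the most frequent, Ighv1-26 and Ighv9-3, led in 7 each. The IgA cells of each library were spread over many V genes, between 15 and 29 for the light chain.

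The clonal cells gave the opposite picture. Igkv10-96 led in 69 of 69 clonal cells with enough light-chain V UMIs (exact 95% interval 94.8 to 100%), and Ighv1-54 led in 28 of 28 for the heavy chain. The 73 IgG and IgM plasma cells resembled the IgA cells, with 36 light-chain V genes leading in 68 cells and Igkv10-96 in 1.

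Igkv10-96 also led in 7 IgA cells, which were examined one by one after this was seen. They carried between 3 and 24 UMIs of Igkv10-96, 0 UMIs of Ighv1-54 and 0 UMIs of Rhox5. Their heavy chains were led by Ighv1-26 in 2 cells and by Ighv6-3, Ighv2-5, Ighv1-12 and Ighv5-9 in 1 cell each, and the last had no heavy-chain V UMI. Each held between 1244 and 7663 UMIs of Igha. Ighv1-54 led in 2 of the 96 IgA cells (2.08%, exact 95% interval 0.253 to 7.32%), both in vehicle 2. In the 6 cells with heavy-chain V UMIs, Igkv10-96 was thus seen with a heavy-chain gene other than that of the clone, and the pairing of the seventh is unknown.

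**Figure D2:**
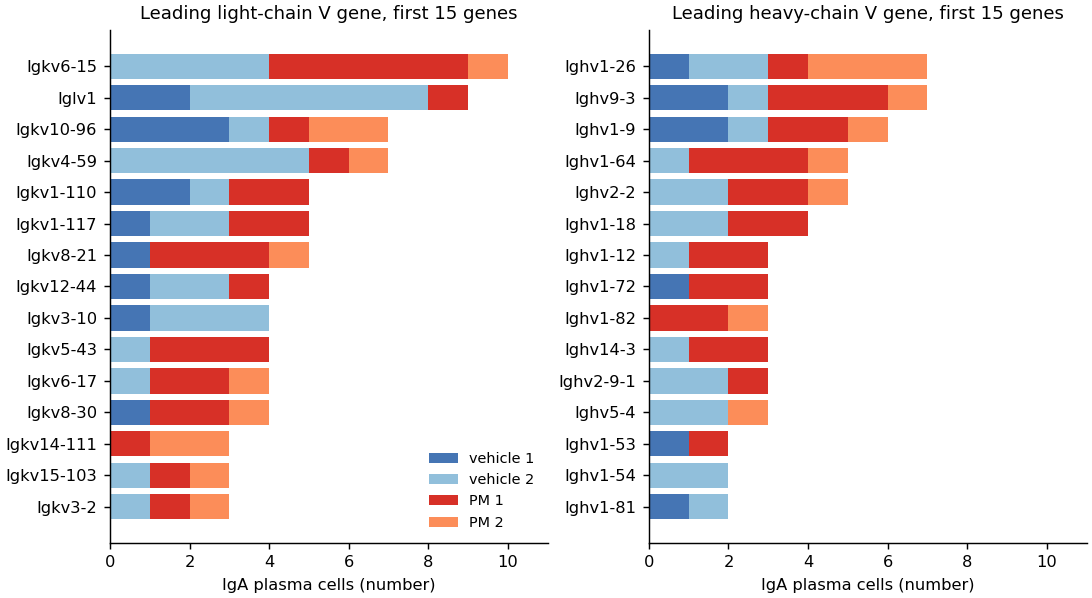
Number of IgA plasma cells led by each of the 15 most frequent light-chain (left) and heavy-chain (right) V genes, stacked by library, among cells with at least 5 V UMIs of that chain. No gene led in more than 10 of 128 cells for the light chain or 7 of 96 for the heavy chain.

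Immunoglobulin transcripts made up a median of 56.9, 56.4, 55.7 and 55.4% of the UMIs of an IgA cell in vehicle 1, vehicle 2, PM 1 and PM 2. Single cells lay far below, with lowest values of 25.5, 28.6, 12.97 and 4.31%. The lowest cells of PM 1 and PM 2 gave 34.9 and 29.4% of their UMIs outside immunoglobulin genes to the neutrophil markers. The lowest Igha count of any IgA cell was 167 UMIs and the highest 10196. Lambda light-chain constant UMIs outnumbered those of kappa in 3, 6, 1 and 0 cells. Because these transcripts crowd out the rest, all levels below are counts per 1000000 UMIs (CPM) outside 392 immunoglobulin genes, summed over the cells of a library.

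Plasma-cell markers that the gates did not use were present in every library. Tnfrsf17 stood at 345, 312, 209 and 178 CPM in the IgA cells, and at 0, 0.843, 1.92 and 0 CPM in the clonal cells. Mzb1, a chaperone of antibody assembly, stood at 1800.3, 1665, 2338 and 2394 CPM in the IgA cells and at 11.7, 63.2, 120 and 38.4 CPM in the clonal cells. Sdc1, which encodes the plasma-cell surface proteoglycan CD138, stood at 488, 641, 633 and 497 CPM in IgA cells and at 317, 379, 348 and 466 CPM in clonal cells. In UMIs per cell, with no scaling to the total, Sdc1 ran the other way: its mean was 4.64, 5.67, 4.00 and 4.24 UMIs per IgA cell and 9.5, 16.6, 12.2 and 19.2 UMIs per clonal cell. The defining markers of the plasma-cell label were thus present. They were read from the cells that the gates selected and carry no test.

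Transcripts of other cell types were checked by their marker lists. The 10 neutrophil markers, all detected and led by S100a9, summed to 39444, 18012, 24808 and 30040 CPM in the IgA cells, and 3, 3, 4 and 2 IgA cells gave more than 2% of their UMIs to them. The 7 monocyte and macrophage markers, led by F13a1, summed to 9.58, 16.2, 117 and 315 CPM. Both PM libraries were thus higher than both vehicle libraries for the monocyte list, and 47 of the 49 F13a1 UMIs in PM 2 lay in 1 cell. Of 7 T and NK cell markers 6 had a UMI, led by Nkg7, with sums of 0, 67.3, 79.1 and 20.2 CPM and Cd8a at 0. Of 5 erythroid markers 3 had a UMI, led by Hbb-bs, with sums of 9.58, 51.2, 31.6 and 72.7 CPM and Klf1 at 0. Of 5 plasmacytoid dendritic cell markers 4 had a UMI, led by Tcf4, with sums of 1302, 1296, 1249.9 and 1151 CPM and the defining gene Siglech at 0. Of 10 B-cell markers 9 had a UMI, led by Cd74, with sums of 3452, 3448, 4477 and 3912 CPM and Ighd at 0. Fits without neutrophil-rich cells and without cells with a monocyte marker UMI are given below. The part of these transcripts in the results was otherwise not tested. No doublet caller was run, and 1 IgA barcode of PM 1 also occurred among the kept cells of vehicle 1.

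The share of IgA plasma cells did not separate the treatments. It was 0.238% (exact 95% interval 0.149 to 0.359%) in vehicle 1, 0.537% (0.387 to 0.725%) in vehicle 2, 0.373% (0.277 to 0.492%) in PM 1 and 0.313% (0.21 to 0.449%) in PM 2. The intervals cover counting error only. The mean was 0.387% ± 0.212 (SD, n = 2) with vehicle and 0.343% ± 0.0429 (SD, n = 2) with PM, and the two-sided exact permutation test gave p = 1, where 2 against 2 mice allow no p below 0.333. Of the Rhox5-low plasma cells, the IgA class made up 55% and 80.8% with vehicle and 65.8% and 60.4% with PM.

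IgA cells of both PM libraries were shallower than those of both vehicle libraries. The median UMIs per IgA cell were 19735, 19057, 13682.5 and 16552, and the median genes detected were 2692.5, 2484.5, 2131 and 2479. After each cell was thinned to 4000 UMIs outside immunoglobulin genes and Jchain, the medians were 1839, 1718, 1819 and 1876 genes in 21, 39, 37 and 23 cells that were deep enough. The vehicle and PM medians overlapped on this scale. The part of depth in the comparison of treatments was otherwise not tested.

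The comparison with the 73 IgG and IgM plasma cells set the IgA class beside the other non-clonal plasma cells. IgA cells had more transcript of Ccr10, a receptor for mucosal chemokines, and of the survival genes Cd28, Bcl2 and Tnfrsf17, and less of Pon3, Ms4a1, Epcam and Cd74. Of 3678 genes tested with edgeR's quasi-likelihood test and the library as a block, 64 were called (1.74%), 43 higher in IgA cells (1.17%) and 21 lower (0.571%), at an adjusted p under 0.05 and an absolute log2 fold change over 0.5. Igha and Ighg2b are among them by the gates, and Jchain, called higher in IgA cells, is also a gate gene, so these 3 are a description only. Jchain stood at 146537, 166691, 154749 and 133404 CPM in IgA cells and at 45930.5, 115911, 54847 and 81640.5 CPM in IgG and IgM cells. The IgG and IgM cells were deeper in each library, with median UMIs of 30186, 19992, 17633.5 and 25842 against 19735, 19057, 13682.5 and 16552. Outside immunoglobulin genes the medians were 13444.5, 8247.5, 9878 and 10236 against 8873.5, 8705.5, 5775 and 7682, so vehicle 2 ran the other way. The part of depth in this comparison was not tested. Leaving out vehicle 1 left 2 of the 64 calls, Pon3 and Igha. Without vehicle 2, 14 genes were called, of which 12 were among the 64.

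Among homing genes, Ccr10 was higher and Epcam lower in IgA cells. Ccr10, on chromosome 11 from 101172997 to 101175443, stood at 235, 164, 275 and 258 CPM in IgA cells of vehicle 1, vehicle 2, PM 1 and PM 2. In IgG and IgM cells it stood at 18.4, 83.5, 28.8 and 29 CPM. The groups did not overlap, as held for 4.21% of all genes tested in this direction and 3.13% in the other, and the log2 difference was 2.84 ± 0.365 (SE; edgeR adjusted p = 0.00352). At least 1 Ccr10 UMI was found in 91 of 143 IgA cells (63.6%), against 38 of 162 clonal cells (23.5%), which were sequenced more deeply, and 13 of 8908 neutrophils (0.146%). Epcam, an adhesion molecule, ran the other way at 57.5, 62, 60.1 and 44.4 CPM in IgA cells and 286, 191, 99.2 and 140 CPM in IgG and IgM cells (log2 difference -1.55 ± 0.288, edgeR adjusted p = 0.0204). Of the 16 homing genes listed, 13 were tested, 1 was called higher and 1 lower (7.69% each, against 1.17% and 0.571% of all genes tested), with a median log2 difference of -0.29 against 0.02 over all genes tested.

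Other homing genes did not pass the test. Ccr9, the receptor that guides cells to the small intestine, stood at 52.7, 45.8, 28.5 and 8.07 CPM in IgA cells (edgeR adjusted p = 0.918), Itgb7 at 134, 97, 165 and 161 CPM (adjusted p = 0.663 by edgeR) and Cxcr4 at 124, 62, 75.9 and 161 CPM (adjusted p = 0.221 by edgeR). Ly6c2, which encodes a surface protein of the LY6 family, was lower in IgA cells in 4 of 4 libraries with a log2 difference of -3.66, and the edgeR adjusted p was 0.137. It passed in 3 of 16 alternatives: DESeq2 (adjusted p = 4.92e-14), without PM 1 (edgeR adjusted p = 0.00121) and without the library block but with condition as a term (edgeR adjusted p = 0.03). A lower level in 4 of 4 libraries was found for 10.3% of all genes tested and a higher level in 4 of 4 for 10.2%.

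Several receptors and regulators of survival were higher in IgA cells. Cd28 stood at 278, 224, 285 and 242 CPM in IgA cells and at 84.5, 95.4, 83.2 and 131 CPM in IgG and IgM cells (log2 difference 1.42 ± 0.238, edgeR adjusted p = 0.0112). Bcl2, an inhibitor of apoptosis, stood at 148, 170, 168 and 137 CPM against 40.4, 107, 38.4 and 29 CPM (1.74 ± 0.297, edgeR adjusted p = 0.0124). Tnfrsf17 in IgG and IgM cells was at 103, 83.5, 96 and 126 CPM (1.29 ± 0.264 higher in IgA, edgeR adjusted p = 0.0293). The Tnfrsf17 call was lost with DESeq2, without vehicle 1 and without vehicle 2 (adjusted p of edgeR or DESeq2 up to 0.414), and the Cd28 call without vehicle 1 or vehicle 2. Of 10 tested survival genes, 3 were called higher, against 1.17% of all genes tested, and none lower, with a median of 0.39 against 0.02. Tnfrsf13b, the receptor TACI, and Mcl1 did not pass, with edgeR adjusted p of 0.136 and 0.962.

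**Figure D3:**
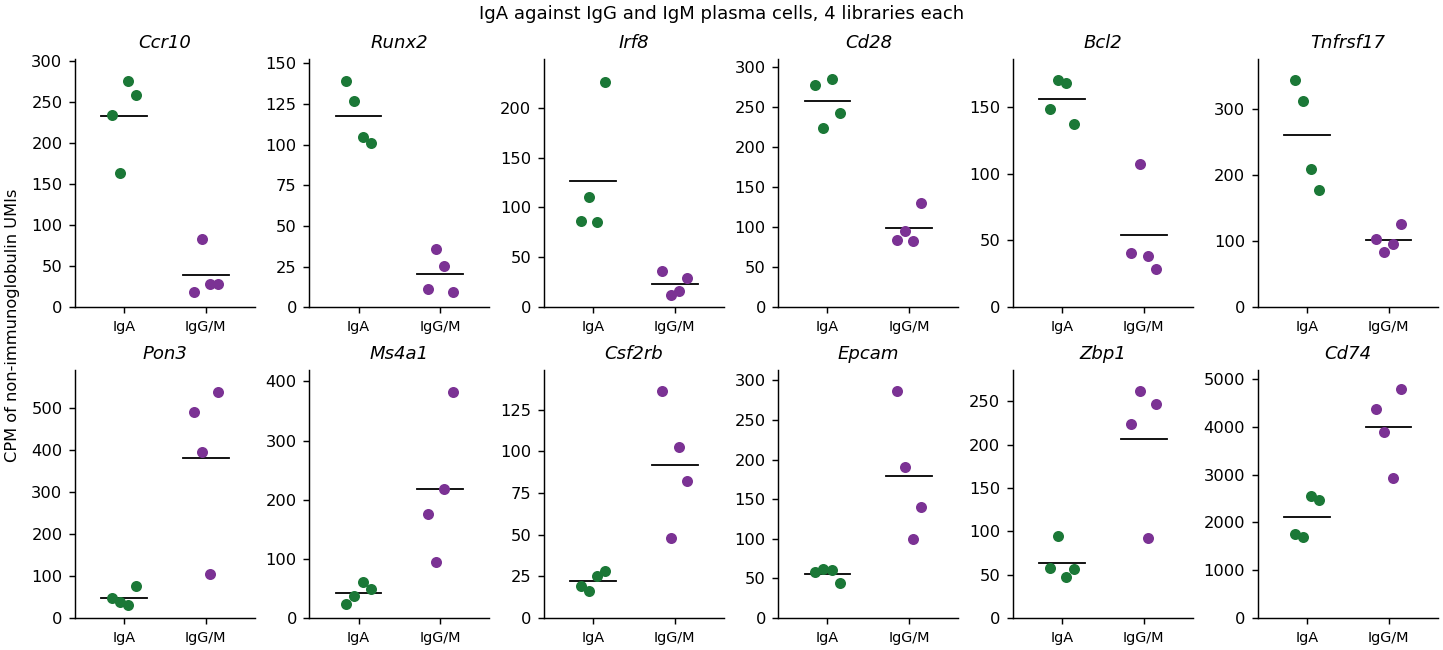
CPM outside immunoglobulin genes in IgA (green) and IgG and IgM (purple) plasma cells, with 1 point per library and a line at the mean, each panel on its own axis from 0. The upper 6 genes were called higher in IgA cells and the lower 6 lower. The genes are shown because they were called, so the separation of their points is no further evidence, and for Zbp1 the lowest IgG and IgM value, 92.8 CPM, lay under the highest IgA value, 94.3 CPM.

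The genes named as higher by the rule included the regulators Runx2, Irf8 and Zfp280b. Runx2, a Runt-family factor, stood at 139, 127, 104 and 101 CPM in IgA cells against 11, 35.8, 25.6 and 9.67 CPM (2.63 ± 0.366, edgeR adjusted p = 0.00402). Irf8, an interferon regulatory factor of B and myeloid cells, stood at 86.2, 110, 85.4 and 226 CPM against 36.7, 11.9, 16 and 29 CPM (2.27 ± 0.357, edgeR adjusted p = 0.00826). The Irf8 call was lost when cells with a monocyte marker UMI, vehicle 1 or vehicle 2 were left out. Zfp280b, a zinc-finger gene, stood at 172, 70, 155 and 226 CPM against 18.4, 35.8, 25.6 and 24.2 CPM. Foxo1, a forkhead factor of B-cell development, was also called, at 134, 137, 130 and 129 CPM against 66.1, 71.5, 41.6 and 24.2 CPM; it was chosen for mention after its values were seen, as was St6gal1.

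St6gal1, the enzyme that adds sialic acid to N-linked glycans, stood at 790, 682, 715 and 771 CPM in IgA cells and 195, 322, 234 and 290 CPM in IgG and IgM cells (1.55 ± 0.194, edgeR adjusted p = 0.00266). The remaining genes named as higher by the rule were Dnm3, Ahnak, Atp1b1, Socs2, Kcnmb4 and Gimap5, with log2 differences between 1.92 and 2.99. DESeq2 did not call Dnm3, Ahnak, Kcnmb4 or Gimap5, and these 4 lost the call in 3 of 16, 5 of 13, 6 of 16 and 5 of 16 alternatives. The gene model Gm19585, with a log2 difference of 2.60 (edgeR adjusted p = 0.00266), was left out by the rule, which takes no Gm or Rik genes. Atp1b1, a subunit of the sodium pump, stood at 196, 210, 158 and 279 CPM against 33, 59.6, 44.8 and 67.7 CPM.

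Ms4a1 and Cd74 were lower in IgA cells. Ms4a1, which encodes CD20, stood at 23.9, 37.7, 60.1 and 48.4 CPM in IgA cells and at 176, 95.4, 218 and 382 CPM in IgG and IgM cells (-2.26 ± 0.306, edgeR adjusted p = 0.00352). Cd74, the invariant chain of MHC class II, stood at 1757, 1703, 2550.4 and 2463 CPM against 4380.5, 3899, 2926 and 4797 CPM (-0.90 ± 0.175, edgeR adjusted p = 0.0258). The Cd74 call was lost in 4 of 16 alternatives. The list as a whole did not run one way: of 7 tested genes of the B-cell and class II list, 2 were called lower (28.6%, against 0.571% of all genes tested) and none higher, while 4 of the 7 had a positive difference (median 0.42). Cd79a, a chain of the B-cell receptor, had a log2 difference of 0.54 (edgeR adjusted p = 0.22) and passed in 1 of 16 alternatives. The class II gene H2-Aa had one of 1.47 (adjusted p = 0.136 by edgeR) and passed in 2 of 15, and H2-Ab1 one of 0.42 (adjusted p = 0.642 by edgeR).

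Pon3, a paraoxonase, stood at 47.9, 37.7, 31.6 and 76.7 CPM in IgA cells and at 488, 393, 106 and 537 CPM in IgG and IgM cells (-2.84 ± 0.28, edgeR adjusted p = 0.000758). Among the named genes called between classes, only Pon3 kept its call in all 16 alternatives, including each left-out library. Its highest adjusted p of edgeR or DESeq2 was 0.0499, just under the limit. Oosp1, Csf2rb (the shared beta chain of cytokine receptors), Cyp4f18, Zbp1 (a sensor of nucleic acids), Prlr, Erlec1 and Tpst1 completed the genes named as lower, with log2 differences between -2.83 and -1.22. DESeq2 did not call Prlr and Tpst1, and Cyp4f18 lost the call in 5 of 16 alternatives.

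Most genes of the secretory machinery did not pass the test. Of 54 tested genes of the endoplasmic reticulum and unfolded protein response, 1 was called higher (1.85%, against 1.17% of all genes tested) and 3 lower (5.56%, against 0.571%). Called or not, 41 of the 54 had a negative difference and 13 a positive one (24.1% positive, against 52.9% of all genes tested), with a median log2 difference of -0.16. Txndc5, a disulfide isomerase, stood at 3399, 3394, 2775 and 2717 CPM in IgA cells against 2210.4, 1776, 845 and 1383 CPM (1.07 ± 0.17, edgeR adjusted p = 0.00917). Sel1l, of the degradation complex, was lower at 646, 673, 566 and 682 CPM against 1311, 1264, 1043 and 1219 CPM (-0.90 ± 0.141, edgeR adjusted p = 0.00826), and Ssr4 and Ero1lb were lower too. None of 36 proteasome genes and none of 13 cell-cycle genes was called. Of 18 tested histone and deacetylase genes 3 were called higher (16.7%, against 1.17% of all genes tested): Hdac9, H3f3b and Hist1h1c. Of 64 respiratory-chain genes 1 was called lower (1.56%, against 0.571%), Ndufa1, and 48 of the 64 had a negative difference.

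Neutrophil transcripts moved unevenly in this comparison. Their summed markers in IgG and IgM cells were 27109, 1371, 101697 and 9178 CPM, and 12 of 26 such cells in PM 1 were rich in them. Without neutrophil-rich cells, 106 genes were called higher and 85 lower, and 60 of the 64 calls were shared. Their part in the calls was otherwise not tested. The plasmacytoid dendritic cell markers, led by Tcf4, summed to 808, 846, 775 and 1006 CPM in IgG and IgM cells. In IgA cells the sums were higher, at 1302, 1296, 1249.9 and 1151 CPM. All 3 tested members were higher in IgA cells (median log2 difference 0.51), and none was called. The part of these markers in the calls was not tested.

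Few genes passed the test between PM and vehicle. Of 4254 genes tested in IgA cells, 7 were called (0.165%), 3 higher with PM (0.0705%) and 4 lower (0.094%), while at an unadjusted p under 0.05 the counts were 111 and 117. Outside the immunoglobulin genes the calls were Ly6c2, higher, and Serpina3g, lower.

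Ly6c2, on chromosome 15 from 75108158 to 75111970, stood at 230 and 116 CPM in the vehicle libraries and at 744 and 888 CPM in the PM libraries. Both PM libraries lay above both vehicle libraries, and the log2 fold change was 2.24 ± 0.285 (edgeR adjusted p = 3.87e-05). The gene was detected in 10 of 22, 19 of 42, 31 of 50 and 17 of 29 IgA cells, and the cell with the most UMIs held 18.8, 16.3, 22.6 and 30% of the total. Without the top cell of each library the levels were 187, 97, 576 and 622 CPM. The higher PM total lay in a minority of cells: 8 of 50 cells in PM 1 held 184 of 235 UMIs and 7 of 29 in PM 2 held 183 of 220, each with 10 or more, a limit chosen after the values were seen. The top cells of PM 1 and PM 2, with 53 and 66 Ly6c2 UMIs, each had 5 cycling markers detected. Immunoglobulin genes made up 16.7 and 20.2% of their UMIs. Some of the PM cells with 10 or more were neutrophil-rich. Neutrophil markers made up 5.61, 17.6 and 13.4% of UMIs outside immunoglobulin genes in those of PM 1. In those of PM 2 the values were 26.6 and 29.4%. No vehicle cell had more than 9 Ly6c2 UMIs. The remaining PM cells averaged 1.21 and 1.68 UMIs, against 2.18 and 1.02 in the vehicle cells. On the CPM scale Ly6c2 in them stood at 205 (PM 1) and 269 (PM 2), against 230 (vehicle 1) and 116 (vehicle 2). The limit thus took cells out of the PM libraries only. The near-identical gene Ly6c1 had 1 UMI in all IgA cells. The call held in all 15 alternatives, with log2 fold changes from 1.83 to 2.66.

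Ly6c2 was also abundant in other marrow cells. It stood at 1370, 1241, 1599 and 1564 CPM in neutrophils, at 454.6, 349, 1051 and 766 CPM in B cells and at 45, 92.8, 234 and 93.6 CPM in the clonal cells. In each of these cell types both PM libraries lay above both vehicle libraries. For the clonal cells, PM 2 (93.6 CPM) was close to vehicle 2 (92.8 CPM). These differences were not tested. In IgA cells without neutrophil-rich cells the log2 fold change was 2.42, and without the cells that had a monocyte marker UMI it was 2.34 (edgeR adjusted p = 1.34e-06). In IgG and IgM plasma cells it stood at 5284 and 3326 CPM with vehicle and 3649 and 7949 CPM with PM, which overlapped. The difference of the PM effect between the classes was 1.87 on the log2 scale (edgeR adjusted p = 0.147) and was not called. That interaction called 11 of 4740 genes (0.232%), of which 10 were V genes. The PM effect in IgA cells minus that in IgG and IgM cells was positive for 5 (0.105%) and negative for 6 (0.127%).

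Serpina3g, a serine protease inhibitor on chromosome 12 from 104236245 to 104241939, stood at 211 and 108 CPM with vehicle and 44.3 and 36.3 CPM with PM. The groups did not overlap, and the log2 fold change was -1.94 ± 0.386 (edgeR adjusted p = 0.0166). The call was lost with DESeq2 (log2 fold change -2.01), without cycling cells (-1.74) and without vehicle 1 (-1.54), while the direction stayed. UMIs of near-identical family members may be split among them, and Serpina3f stood at 373, 10.8, 60.1 and 4.04 CPM.

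**Figure D4:**
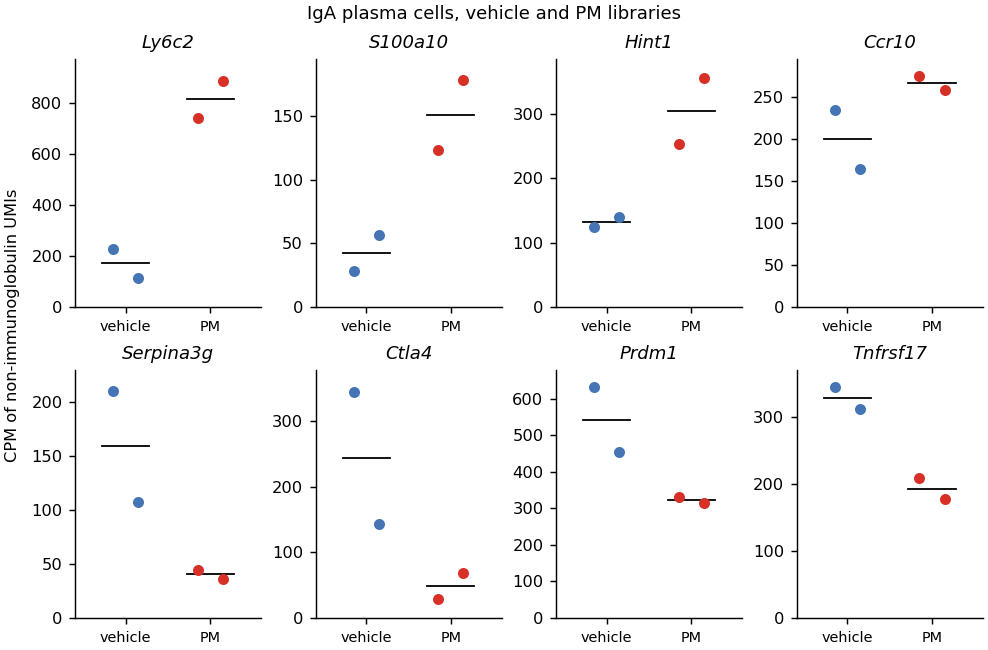
CPM outside immunoglobulin genes in IgA plasma cells of vehicle (blue) and PM (red) mice, with 1 point per library and a line at the mean, each panel on its own axis from 0. Ly6c2 and Serpina3g were called; the other 6 genes were not, although their points did not overlap between the groups either.

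The 5 immunoglobulin genes called between treatments came from few cells. Ighv7-3 had 38 UMIs in 1 cell of vehicle 1 and 37 in 1 cell of vehicle 2, and 0 with PM. Igkv6-25 had 20 UMIs in 1 cell of PM 1, 14 in 1 cell of PM 2 and 0 with vehicle. Igkv14-111 had 14 and 22 UMIs with PM, and Igkv4-57 had 12 and 34 with vehicle, each at 0 in the other group. Iglc1 stood at 32329 and 92758 CPM with vehicle and at 1228 and 973 CPM with PM. Of the 6752 Iglc1 UMIs in vehicle 1, 6482 lay in 1 cell. Lambda constant UMIs outnumbered those of kappa in 3 cells of vehicle 1 and 6 of vehicle 2. Iglc1 shares near-identical sequence with the other lambda constant genes, so its reads are uncertain.

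Genes that did not pass gave the following values. Ctla4, an inhibitory receptor of lymphocytes, stood at 345 and 143 CPM with vehicle and 28.5 and 68.6 CPM with PM (edgeR adjusted p = 0.215), and passed in 7 of 15 alternatives. S100a10 stood at 28.7 and 56.6 CPM with vehicle and 123.4 and 178 CPM with PM (adjusted p = 0.0944 by edgeR). It passed in 3 of 15 alternatives, with log2 fold changes from 0.47 to 2.37. Prdm1 stood at 632 and 455.3 against 332 and 315 CPM (adjusted p = 0.516 by edgeR). For Tnfrsf17 the edgeR adjusted p was 0.524. Without overlap between groups, in either direction, lay 18.8% (higher) and 14.3% (lower) of all genes tested, so this pattern alone was common.

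The homing list, through Ly6c2, was the only gene list with a call between treatments, 1 of 13 tested genes (7.69%, against 0.165% of all genes tested). Of 16 plasma-cell identity genes none was called, and 14 had a negative fold change (median -0.15, against 0.00 for all genes tested). Of 21 tested cell-cycle genes none was called, and 18 were higher (median 0.77). The summed level of all 38 listed genes overlapped between the groups, at 3299 and 1414 CPM with vehicle and 2497 and 4989.8 CPM with PM. For Mki67, a marker of dividing cells, 1 cell held 76.5 and 58.3% of the UMIs in the vehicle libraries and 76.2 and 66.7% in the PM libraries. Of 17 tested interferon-response genes 9 were higher and 8 lower, with a median of 0.02 and no call. Of 7 tested genes of the B-cell and class II list 6 had a positive fold change (median 0.63), and of 20 immediate-early and stress genes 15 had a negative one (median -0.43), with no call in either. Within the B-cell and class II list, only H2-Aa passed in any alternative, 3 of 15, with log2 fold changes from 0.88 to 4.58 over them all. No call was made among 54 endoplasmic reticulum, 36 proteasome or 20 histone and deacetylase genes.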

How the data were processed

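Per the file headers, the authors made the deposited UMI counts with Cell Ranger 6.0.1. The study's methods name GRCm38 and the submitters' processing notes GRCm39. Feature identifiers were matched to GENCODE M21 (GRCm38), from which positions and sequences come. Cells with under 300 genes or over 20% mitochondrial UMIs were left out, and no doublet caller was run. UMIs were summed per library and class, and 392 immunoglobulin genes stayed out of library sizes. Genes were tested with edgeR 4.0.16 in R 4.3.3 (TMM, filterByExpr, robust quasi-likelihood, Benjamini-Hochberg adjustment), by treatment in IgA cells, by class with the library as a block, and for their interaction. DESeq2 1.42.0, the study's tool for summed counts, was an alternative. The tests by treatment and by class were tried on simulated data, and the interaction test was not. Named genes were the 10 largest called changes per direction at 20 CPM or more with the same direction in every library or pair, leaving out immunoglobulin, T-cell receptor, mitochondrial, hemoglobin, ribosomal protein, Gm and Rik genes, with up to 5 of lowest p where fewer were called, plus listed genes. Members, lists and rules were chosen with earlier results of these data known. Depth per library is given with the results. Each library is 1 mouse.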

Additional observations from a re-analysis of the deposited data

Results flagged for a closer look

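The PM effect was compared between IgA and IgG or IgM plasma cells by an interaction term in edgeR, and 11 genes of 4740 tested were called (0.232%). Of these, 10 were immunoglobulin V genes, many of them at 0 in whole libraries. The other was Ifitm1, an interferon-induced membrane protein, with a log2 PM effect in IgA cells minus that in IgG and IgM cells of -4.82 (edgeR adjusted p = 0.0131). DESeq2 called no gene for this interaction, and no gene outside the immunoglobulin genes was called without vehicle 1 or without vehicle 2, so the Ifitm1 call was lost in all 3. Ifitm1 stood at 220 and 70 CPM with vehicle and 75.9 and 16.1 CPM with PM in IgA cells, and at 22 and 11.9 CPM with vehicle and 163 and 106 CPM with PM in IgG and IgM cells. In IgA cells, 44 of its 46 UMIs in vehicle 1 and 21 of its 26 UMIs in vehicle 2 lay in 1 cell each.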

How the results depend on the processing

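With 2 mice per group and 22 to 50 IgA cells per library, counts of calls moved widely. With PM, 3 genes were called higher and 4 lower. Some settings below are given by 1 direction only. Their totals over both directions were 4 with DESeq2, 12 without neutrophil-rich cells, 4 without cycling cells and 13 with a replicate block. DESeq2 called 2 lower, no filter on low counts gave 32 and 22, leaving out neutrophil-rich cells gave 6 higher, leaving out cells with a monocyte marker UMI 6 and 8, leaving out cycling cells 2 lower, and leaving out 1 library between 15 and 48 higher and between 16 and 29 lower. The alternatives on monocyte markers and cycling cells, and all those for the interaction, were chosen after seeing the data. Labels share replicate numbers 1 and 2, and a replicate block called 7 higher. The deviations of vehicle 1 and PM 1 correlated at -0.06 over 3970 genes, so the numbers were not taken as pairs. Between classes, 43 were called higher and 21 lower. Where 1 direction is given, the totals over both were 40 with DESeq2, 48 with a Jchain gate of 100 and 82 with 20. They were 131 without monocyte-marker cells and 81 without the library block but with class and condition. DESeq2 called 18 higher, no filter gave 113 and 74, a Jchain gate of 100 gave 26 higher and of 20 gave 35 lower, leaving out neutrophil-rich cells 106 and 85, monocyte-marker cells 67 lower, cycling cells 73 and 64, no library block with class and condition 33 lower, and leaving out 1 library between 1 and 55 higher and between 1 and 61 lower. Of 20 named genes called between classes, 19 lost the call without vehicle 1. For the interaction, DESeq2 called 0 and 0 (4 and 16 at an unadjusted p under 0.05), and leaving out 1 library gave between 0 and 31 higher and between 0 and 48 lower. Where a group had 1 library left, it was assumed to vary like the others. The share among all Rhox5-low plasma cells differed by -4.78 percentage points. No named gene that was called changed direction. The causes were not tested.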
